A study of Ananas comosus with 48 samples.

Results

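The miRs of pineapple (Ananas comosus) shoot apices were compared 6 days after the plants had received ethephon or water. Ethephon is a compound that breaks down to ethylene and is used commercially to force pineapple to flower. The comparison held 6 of the 48 small RNA libraries of the series, chosen by their labels alone: 3 from water-treated apices at day 6 (the control) and 3 from ethephon-treated apices at day 6. All plants were field-grown pineapple of the cultivar 'MD1' (PRI 73-50) and received 10 ml of liquid in the plant centre, either plain water or water with 50 mg of ethephon, so that the groups shared the injection itself. The plot was divided into 3 field replications, and each library was a biological replicate made from the apices of 3 plants. No source used here says whether a library's number is that of its field replication. The excised apex kept leaf primordia, so that the values belong to the meristem and the young leaves around it together. As no sure miR markers of single cell types of this tissue were at hand, the label could be checked only by proxy. The meristem and leaf polarity families miR394 and miR166 (no sequence of miR165 was listed) summed to 107988 to 166320 CPM (counts per 1000000 counts in listed miRs, scaled as described below) in water-treated and 97979 to 127128 in ethephon-treated apices. The families that stood for leaf and vascular tissue (miR395, miR397, miR398, miR399, miR408 and miR827) summed to 3870 to 4954 and 934 to 4650 CPM. Of their 30 listed sequences, 20 were at 0 in all 6 libraries, as were 88 of all 190 listed sequences. Fewer cells of a type and less miR per cell cannot be told apart in such samples.

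Plant miRs are short RNAs cut from hairpin precursors and loaded on ARGONAUTE proteins, which they guide to messenger RNAs that pair with them along most of their length. The arm of the hairpin that a mature miR comes from is written as 5p or 3p, and in many families a single arm is the usual guide. In flowering plants, miR156 holds back and miR172 promotes the change from the juvenile to the adult and flowering phase, through SPL and AP2-like transcription factors. miR160 and miR167 target auxin response factors, miR164 targets NAC genes of organ boundaries, miR166 the HD-ZIP III genes of leaf polarity, and miR171 GRAS genes of the meristem. These roles are known mainly from Arabidopsis and rice. They were not measured here.

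The mature sequences on which the day 6 results turned are shown first, as deposited with the counts, from 5′ to 3′ with the seed (bases 2 to 8) in capitals. They show which of the miRs that moved were near copies of each other. The pair of miR160 guides and an opposite arm of the same family were these.
miR160a-5p: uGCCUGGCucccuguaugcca
miR160d-5p: uGCCUGGCucccugaaugcca
miR160a-3p: gCGUGCGAggagccaagcaug
The miR168 arms, and the sequences of miR172 and miR394 described below, were these.
miR168a-5p: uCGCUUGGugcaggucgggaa
miR168b-3p: cCCGCCUUgcaccaacugaau
miR172a-3p: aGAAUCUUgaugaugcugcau
miR394a-3p: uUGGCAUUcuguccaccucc
The miR171 family divided into sequences with different seeds. Of its 9 sequences tested at day 6, all but miR171f-5p and miR171a-5p are shown.
miR171f-3p: uUGAGCCGcgucaauaucucc
miR171b-3p: uUGAGCCGcgccaauaucacg
miR171d-3p: uUGAGCCGcgccaauaucacu
miR171a-3p: uUGAGCCGcgccaauaucucu
miR171g-3p: uGAUUGAGccgugccaauauc
miR171c-3p: uGAUUGAGucgugccaauauc
miR171c-5p: uGUUGGUUcgacucacucagg
miR160a-5p and miR160d-5p shared their seed and differed by the single substitution U15A, counted from the 5′ end of miR160a-5p. Each stood for several miR genes: the deposited list gives the first sequence also as miR160b-5p and miR160c-5p, and the second as miR160e-5p and miR160f-5p. How reads were divided between sequences that differ by 1 base depends on the mismatches allowed in the alignment, which no source used here states. Such pairs are therefore also reported as family sums. A sum does not depend on how reads are split, but it does not correct for a read counted for both sequences.

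The 6 libraries held 47786 to 67225 counts in listed miRs, from 11704062 to 14275549 sequencing tags. Between 74 and 81 miRs were detected in a library, and a miR with a count of 0 could have been at up to 42.5 to 58.4 CPM, which is what 3 counts are worth on the scale used below. These limits, and the intervals of shares below, cover counting error only. Listed miRs made up 0.450% ± 0.0513 of the tags in water-treated and 0.422% ± 0.0437 in ethephon-treated apices (mean ± SD, n = 3 each; exact permutation p = 0.6, two-sided, where 3 against 3 cannot go below 0.1). Of the counts, 42.3% were miR159c-3p, a sequence also named miR319a-3p and miR319d-3p, and 25.5% were miR159j-3p. Sequences were assigned to families by their first name, so miR159c-3p was counted under miR159 and not under miR319. Together, the sequences so counted under miR159 made up 74.5% ± 3.90 of all counts in water-treated libraries. In ethephon-treated libraries they made up 75.1% ± 0.636 (n = 3 each, exact permutation p = 0.9). Levels below are CPM on the scale of trimmed mean of M-values (TMM), which corrects the library total for composition. The TMM factors were 0.898 to 0.947 in the water-treated and 1.05 to 1.07 in the ethephon-treated libraries. They did not overlap between the groups, so every CPM of an ethephon-treated library was lowered relative to the water-treated ones.

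The question at day 6 was which miRs had moved in ethephon-treated apices relative to the water control. Of the 190 listed sequences, 102 had a count in at least 1 of the 6 libraries and 57 had enough counts over the series to be tested. Both miR160 guides were down-regulated, and no miR was up-regulated (edgeR quasi-likelihood test, Benjamini-Hochberg adjusted p under 0.05). DE miRs thus made up 3.51% of those tested (2 of 57). The study that reported these libraries, with its own edgeR tests, called no miR differentially regulated at day 6. An unadjusted p under 0.05 was found for 8 (14.0%), all of them lower in ethephon-treated apices. The median log2 fold change (ethephon over water) of the 57 was -0.13, and 37 of them lay below 0. With size factors by the RLE method the median was 0.02 and 28 lay below 0, and without a composition factor it was 0.07, also with 28 below 0. The lean towards lower values thus did not hold on these scales, and the values below are to be read against the medians.

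miR160a-5p directs the cleavage of auxin response factor messages in Arabidopsis. Its level was 5328, 6624 and 4898 CPM in the water-treated libraries (replicates 1 to 3) and 2566, 2888 and 2258 CPM in the ethephon-treated ones. The highest ethephon-treated library thus lay far below the lowest water-treated library. The log2 fold change was -1.13 (95% interval -1.53 to -0.72), from 5617 ± 899 to 2571 ± 315 CPM (mean ± SD, n = 3 each), or 45.8% of the water level (edgeR adjusted p = 9.0e-05). Without any composition factor, miR160a-5p was 0.504%, 0.619% and 0.440% of the listed counts in water-treated libraries and 0.269%, 0.310% and 0.243% in ethephon-treated libraries. The lowest Wilson 95% bound of a water-treated library was 0.391%, and the highest of an ethephon-treated library was 0.362%, so that counting error alone did not bring the groups together. Per 1000000 sequencing tags there were 22.6, 24.7 and 22.1 reads of miR160a-5p in water-treated and 12.7, 12.02 and 9.91 in ethephon-treated libraries. The groups did not overlap on any of the 3 scales. The call itself was lost without a composition factor (log2 fold change -0.93, edgeR adjusted p = 0.0767) and when the 6 libraries were fitted alone with edgeR (-1.05, edgeR adjusted p = 0.0891) or limma-voom (-1.04, adjusted p = 0.0843), and was kept with DESeq2 on these 6 libraries (-0.94, adjusted p = 0.00679).

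The rarer guide, miR160d-5p, was at 1458, 1558 and 1008 CPM in water-treated and 737, 744 and 603 CPM in ethephon-treated libraries, again without overlap. Its log2 fold change was -0.94 (95% interval -1.50 to -0.38; edgeR adjusted p = 0.0423). This call was less firm, since it passed in 3 of 21 alternative settings, although the change was negative in 21 of 21. The loss of any single library other than replicate 3 of water ended it, with adjusted p of 0.0746 without replicate 1 and 0.187 without replicate 2 of water, and 0.0784, 0.0931 and 0.136 without replicates 1, 2 and 3 of ethephon.

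**Figure D1:**
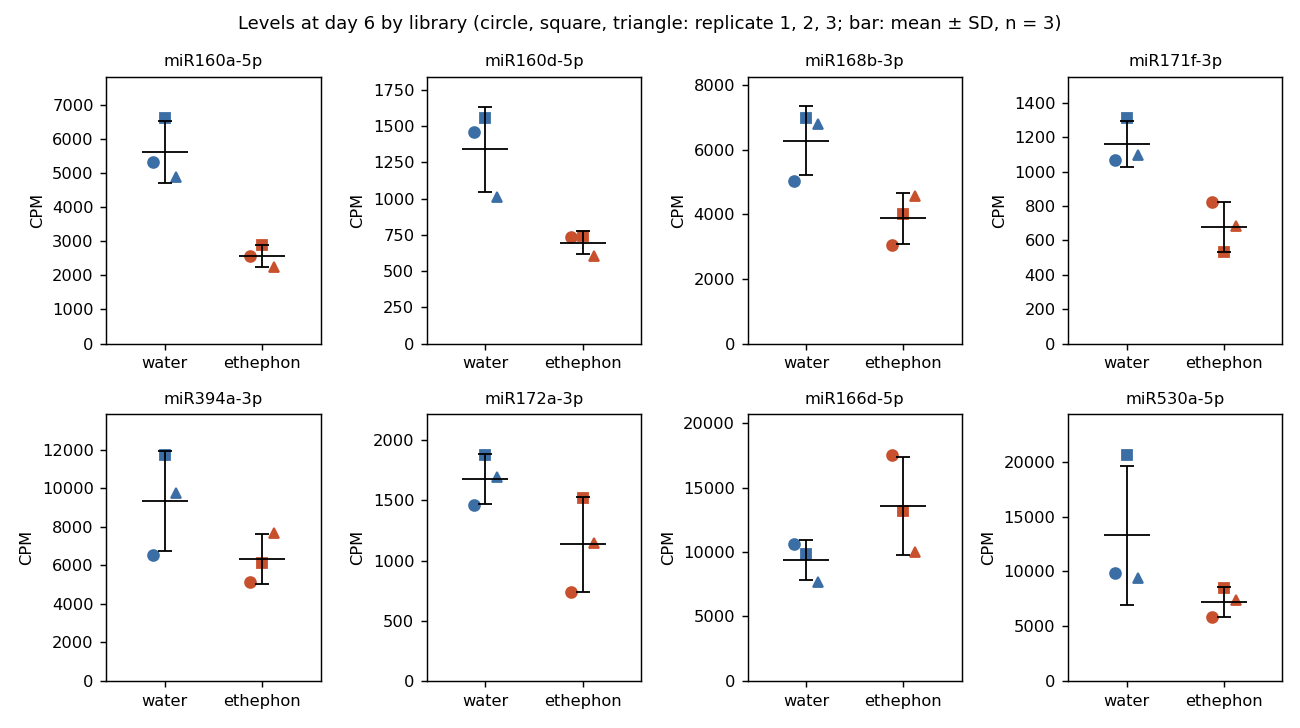
Levels of 8 miRs at day 6 in each library, in CPM on a linear axis from 0, with water in blue and ethephon in orange, symbols for the replicates, and the mean and SD (n = 3) as a bar. The 3 ethephon-treated libraries lie below the 3 water-treated ones for miR160a-5p, miR160d-5p, miR168b-3p, miR171f-3p and miR530a-5p, and the groups overlap for miR394a-3p, miR172a-3p and miR166d-5p.

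Summed over its members, miR160 was the only DE family of the 23 tested (4.35%). Its log2 fold change was -1.01 (95% interval -1.41 to -0.62; edgeR adjusted p = 0.000187). The arms of the family were then taken apart, since a mature miR and its opposite arm come from the same precursors. The 5p arm held 349, 436 and 334 counts in water-treated and 233, 205 and 147 in ethephon-treated libraries. It was the only DE arm of 36 family arms (2.78%), with a log2 fold change of -1.09 (95% interval -1.49 to -0.69; edgeR adjusted p = 7.8e-05). The 3p arms together held 25, 29 and 14 counts in water-treated and 23, 19 and 26 in ethephon-treated libraries, which overlapped. Their log2 fold change was -0.13, with a 95% interval from -0.99 to 0.72. At this depth the interval for the 3p arms included both no change and a change nearly as large as that of the 5p arm. Within libraries, the log2 ratio of miR160a-5p to the miR160 3p arms was 3.79 ± 0.455 in water-treated and 2.74 ± 0.512 in ethephon-treated apices (n = 3 each), a difference of -1.04 (exact permutation p = 0.1, two-sided, the smallest that 20 splits allow). That ratio was chosen after the data had been seen.

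Of the single 3p sequences, miR160a-3p was at 311, 169 and 124 CPM in water-treated and 128, 124 and 117 in ethephon-treated libraries, with a log2 fold change of -0.69 (95% interval -1.85 to 0.47). miR160b-3p had 0.16 (-1.26 to 1.59) and miR160e-3p -0.01 (-1.57 to 1.55). miR160d-3p had too few counts to be tested, with 2, 0 and 0 in water-treated and 4, 1 and 1 in ethephon-treated libraries. None of these passed the test.

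The other auxin families were compared with miR160, as miR167, miR390 and miR393 act on auxin response factors, on the trans-acting RNAs that target them and on auxin receptors in Arabidopsis. Of the 10 tested members of the auxin list, 2 were down-regulated (both of miR160, the only 2 DE of all 57) and none was up-regulated. In this list 7 lay below 0 (37 of 57 over all tested miRs), and the median log2 fold change was -0.06, against -0.13 over all 57. miR167a-5p was at 10365, 5630 and 6790 CPM in water-treated and 5543, 5351 and 5938 CPM in ethephon-treated libraries. Replicate 1 of water stood above the other 5, and the groups overlapped (log2 fold change -0.44, 95% interval -0.89 to 0.02, edgeR adjusted p = 0.250). miR390a-5p had a log2 fold change of -0.11 (95% interval -0.78 to 0.55). miR393a-5p and miR393b-5p had 0.46 each, but these are nested sequences with equal counts in 47 of the 48 libraries and hold a single measurement. Both were nevertheless counted in the summed counts below. A ratio within a library does not depend on the library scale. The log2 ratio of miR160a-5p to the summed counts of miR167, miR390 and miR393 was -0.59 ± 0.554 in water-treated and -1.39 ± 0.205 in ethephon-treated apices (n = 3 each), a difference of -0.79 (exact permutation p = 0.1, the smallest possible). Against miR167 alone the difference was -0.74 (exact permutation p = 0.2), and the difference in the main ratio was -0.51 without replicate 2 of water. Its p was 0.2 without that library or without any 1 of the 3 ethephon-treated libraries, and 0.1 without replicate 1 or 3 of water (exact permutation).

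Among the miRs of the small RNA machinery, the 2 arms of miR168, whose 5p arm targets ARGONAUTE1 in Arabidopsis, gave different values. miR168b-3p was at 5036, 6981 and 6790 CPM in water-treated and 3034, 4004 and 4575 CPM in ethephon-treated libraries. The groups did not overlap, and the log2 fold change was -0.70 (95% interval -1.14 to -0.25), but the edgeR adjusted p was 0.0581 and miR168b-3p was not DE. As shares of the listed counts without a composition factor, the groups overlapped: 0.477%, 0.652% and 0.610% in water-treated and 0.318%, 0.430% and 0.492% in ethephon-treated libraries. miR168a-5p was at 6398, 4448 and 5517 CPM in water-treated and 6223, 5440 and 5451 in ethephon-treated libraries. Its log2 fold change was 0.07 (95% interval -0.30 to 0.43). The difference between the arms was not itself tested. miR162a-3p, which targets the dicer that cuts miR precursors, had -0.12 (95% interval -0.43 to 0.19), and its sign turned with the scale (0.09 without a composition factor).

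The age and phase families were examined because ethephon forces flowering. miR172a-3p, whose AP2-like targets repress flowering in Arabidopsis and maize, was at 1458, 1877 and 1698 CPM in water-treated and 737, 1524 and 1149 CPM in ethephon-treated libraries. Replicate 2 of ethephon lay above replicate 1 of water, so the groups overlapped. The log2 fold change was -0.57 (95% interval -1.08 to -0.06), with an unadjusted p of 0.0302 and an adjusted p of 0.246 in edgeR. miR172b-3p had -0.41 (95% interval -1.63 to 0.81). The opposite arms were under the count filter: miR172a-5p had 8, 4 and 5 counts in water-treated and 3, 1 and 1 in ethephon-treated libraries, and miR172c-5p had 2, 3 and 3 against 2, 0 and 0. Each of these had its ethephon-treated counts at or below its lowest water-treated count, with totals of 17 against 5 and 8 against 2. The family sum of miR172 had a log2 fold change of -0.63 (95% interval -1.14 to -0.12; edgeR adjusted p = 0.160) and was not DE.

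miR156, the family that marks the juvenile phase, was almost absent from these libraries. Only 4 of its 12 listed sequences had a count at day 6. They summed to 7, 3 and 3 counts in water-treated and 2, 10 and 6 in ethephon-treated libraries, too few for a test. miR157 had no listed sequence. miR535a-5p, of a family related to miR156, had 6, 10 and 3 counts against 4, 6 and 3. miR529, which shares SPL targets with miR156 in grasses, is described with the low-count miRs below.

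Members of the boundary, meristem and polarity families (miR164, miR166, miR171 and miR394) gave 0 DE miRs of 19 tested in edgeR, with 3 at an unadjusted p under 0.05 (8 of 57 over all tested miRs), 14 below 0 (37 of 57) and a median log2 fold change of -0.21 (-0.13). miR394a-3p belongs to a family whose guide targets an F-box gene of the shoot meristem in Arabidopsis. It was at 6553, 11729 and 9743 CPM in water-treated and 5160, 6148 and 7709 in ethephon-treated libraries, which overlapped (log2 fold change -0.56, 95% interval -1.03 to -0.09, edgeR adjusted p = 0.212). miR164a-5p was at 3364, 3247 and 2529 CPM in water-treated and 2367, 2357 and 3173 in ethephon-treated libraries, with a log2 fold change of -0.21 (95% interval -0.72 to 0.29). The rarer miR164c-3p was at 136, 225 and 177 CPM against 28, 71 and 97 CPM. This was 7, 12 and 10 counts against 2, 4 and 5, without overlap (log2 fold change -1.49, 95% interval -2.83 to -0.16, edgeR adjusted p = 0.212).

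In the miR171 family the values went with the seed only in part. The 4 tested sequences with the seed UGAGCCG had log2 fold changes from -0.77 to -0.24, and in 3 of the 4 every ethephon-treated library lay below every water-treated one on the TMM scale, where this held for 19.3% of all tested miRs. Without a composition factor it held for 1 of the 4 (miR171f-3p) and per sequencing tag for 2. miR171f-3p was at 1070, 1314 and 1096 CPM in water-treated and 822, 532 and 681 in ethephon-treated libraries (log2 fold change -0.77, 95% interval -1.35 to -0.18, edgeR adjusted p = 0.166). miR171b-3p was at 564, 507 and 442 CPM against 326, 266 and 409 CPM, and miR171d-3p at 778, 751 and 796 against 624, 620 and 720. miR171a-3p, with 155.6, 394.1 and 513 against 170, 248 and 409 CPM, overlapped. Of the pair with the seed GAUUGAG, miR171g-3p was at 175, 113 and 106 CPM against 99.2, 70.9 and 58.4 CPM (log2 fold change -0.73, 95% interval -2.06 to 0.60), which overlapped on both other scales, and miR171c-3p had the opposite sign. miR171c-5p, from another precursor of the family, was at 272, 94 and 177 CPM in water-treated and 553, 213 and 370 CPM in ethephon-treated libraries (log2 fold change 1.08, 95% interval -0.05 to 2.22). miR171c-3p was at 155.6, 56.3 and 70.7 CPM against 227, 142 and 155.7 CPM (0.91, 95% interval -0.20 to 2.03). For both arms of miR171c the groups overlapped, although those of miR171c-3p did not without a composition factor. The opposite arm of miR171f, miR171f-5p, was at 875, 619 and 743 CPM in water-treated and 1134, 425 and 603 CPM in ethephon-treated libraries. Its log2 fold change was -0.03 (95% interval -0.66 to 0.60), and that of miR171a-5p was -0.21 (-1.39 to 0.96). Both overlapped. None of the miR171 members was DE, and the family sum had -0.25 (edgeR adjusted p = 0.486). Since several of these sequences differ by a single base (U19A between miR171a-3p and miR171d-3p, G21U between miR171b-3p and miR171d-3p, U9C between miR171c-3p and miR171g-3p), they may share reads.

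Of the miR166 family, the 3p arms, which are its guides, had log2 fold changes near or below 0. miR166b-3p, the third most abundant miR, was at 118289, 75365 and 68556 CPM in water-treated and 80518, 72559 and 59356 in ethephon-treated libraries (log2 fold change -0.30, 95% interval -0.68 to 0.08, and -0.02 without replicate 1 of water). miR166a-3p had -0.13 (95% interval -0.48 to 0.23), and its sign held in 13 of 21 alternatives, with 0.07 without a composition factor. Both tested 5p arms lay above 0. miR166d-5p was at 10637, 9852 and 7657 CPM against 17521, 13147 and 9967 CPM, where replicate 3 of ethephon lay below replicate 1 of water (0.53, 95% interval -0.03 to 1.096, edgeR adjusted p = 0.250). miR166a-5p was at 77.8, 56.3 and 53.0 CPM against 99.2, 195 and 155.7 CPM, which did not overlap but rested on 10 and 26 counts in all (1.22, 95% interval -0.43 to 2.88).

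**Figure D2:**
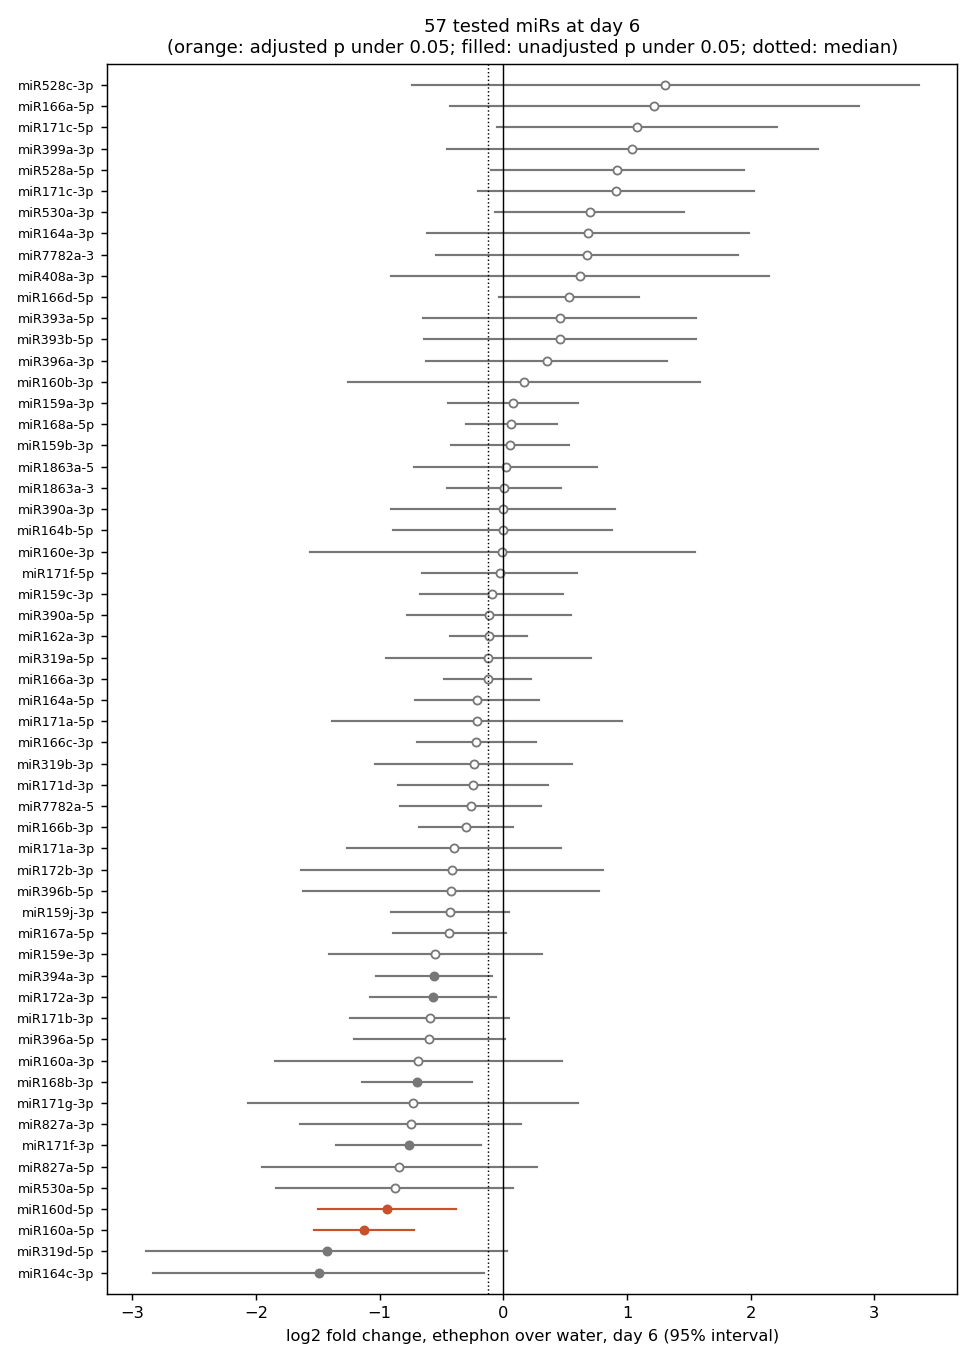
Log2 fold change of ethephon over water at day 6 for the 57 tested miRs, with 95% intervals, ordered by size. miR160a-5p (-1.13) and miR160d-5p (-0.94), in orange, are the only ones with an adjusted p under 0.05, the filled grey points are the 6 others with an unadjusted p under 0.05, and the dotted line is the median of -0.13. An interval and a test can differ at the margin, as for miR319d-5p, since they were computed by different methods.

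In the remaining families no miR was DE. The TCP and GRF families gave 0 of 6, with 5 below 0, against 2 DE and 37 below 0 among all 57 tested. This list left out miR159c-3p, which is also named miR319a-3p and miR319d-3p and was counted under miR159 by its first name. The log2 fold change of that sequence was -0.10 (95% interval -0.67 to 0.48). miR396a-5p, which targets growth-regulating factors, was at 953, 2871 and 1910 CPM in water-treated and 879, 1311 and 1616 in ethephon-treated libraries (log2 fold change -0.60, 95% interval -1.21 to 0.01), and miR319a-5p at 544, 1013 and 424 against 284, 744 and 818. In both the groups overlapped. The copper families miR408 and miR528 gave 0 of 3, all above 0, a list too small to set against the 2 DE of 57. miR528a-5p, a miR of monocots, was at 175, 469 and 584 CPM against 964, 992 and 370 CPM (0.92, 95% interval -0.10 to 1.94). Here replicate 3 of ethephon lay within the water-treated group and the other 2 above it.

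In some miRs the libraries of a group differed widely. miR530a-5p was at 9859, 20605 and 9354 CPM in water-treated and 5826, 8523 and 7339 CPM in ethephon-treated libraries, so that replicate 2 of water stood alone. The groups overlapped without a composition factor but not per sequencing tag. The log2 fold change was -0.88 (95% interval -1.84 to 0.08), and -0.41 without replicate 2 of water. miR827a-3p, a miR of phosphate homeostasis, was at 3306, 4504 and 4085 CPM against 4224, 2197 and 584 CPM, and replicate 3 of ethephon, with 30 counts, was far below the other 5 (-0.75, 95% interval -1.65 to 0.15, and -0.30 without that library). miR319d-5p was at 39, 244 and 177 CPM against 57, 53 and 58 CPM, with replicate 1 of water at 2 counts, and its log2 fold change was -1.43. The edgeR adjusted p was 0.250, 0.297 and 0.250 for these, and none was DE. Of the families of sulfate and copper under the filter, miR395 had 7, 0 and 1 counts in water-treated and 0, 1 and 2 in ethephon-treated libraries, and miR398a-3p had 4 counts in replicate 1 of water and 0 elsewhere.

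Every ethephon-treated library lay below every water-treated one for 11 of the 57 miRs (19.3%) and above for 2 (3.51%) on the TMM scale. This split turned with the scale. Without a composition factor, 4 lay below (7.02%) and 8 above (14.0%), and per sequencing tag 7 below (12.3%) and 4 above (7.02%). miR159j-3p, the second most abundant miR, was among those that depended on it. It was at 289004, 285995 and 311126 CPM in water-treated and 255660, 181849 and 219513 CPM in ethephon-treated libraries on the TMM scale (log2 fold change -0.43, 95% interval -0.91 to 0.04), and its log2 fold change without a composition factor was -0.23.

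The other question was whether day 6 differed from the other samplings, which ran from 6 hours to day 8 with 3 libraries per treatment each. In the direct test, no miR of 57 had a day 6 difference that departed from the mean of the other 7 samplings (0 by edgeR, with 3 at an unadjusted p under 0.05 and a lowest adjusted p of 0.529). Against day 5 alone the count was 0, with 5 unadjusted, and against day 8 it was 0, with 7 unadjusted and a lowest adjusted p of 0.105. miR160a-5p was below 0 at 8 of 8 samplings and DE at 7, with log2 fold changes from -1.33 at day 3 to -0.56 at day 1. The difference of its day 6 value from the mean of the others was -0.26 (95% interval -0.69 to 0.18). For miR160d-5p that difference was 0.04 (95% interval -0.55 to 0.64). The samplings share no libraries with each other, but the spread behind their tests came from a single fit.

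**Figure D3:**
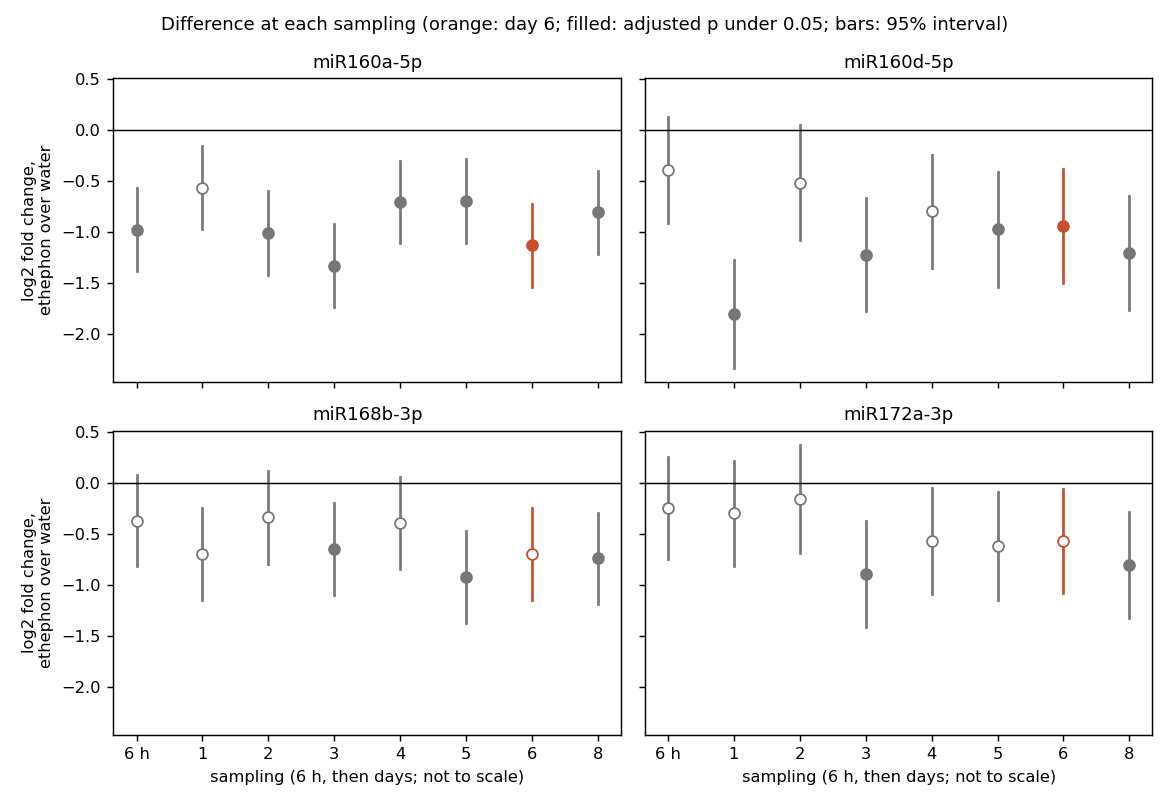
Log2 fold change of ethephon over water at each of the 8 samplings for miR160a-5p, miR160d-5p, miR168b-3p and miR172a-3p, with 95% intervals and day 6 in orange. Each of the 4 miRs lies below 0 at 8 of 8 samplings, and a filled point has an adjusted p under 0.05, which miR160a-5p reaches at 7 samplings, miR160d-5p at 5, miR168b-3p at 3 and miR172a-3p at 2. The study itself reported miR172 as not DE at any sampling.

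The miRs that came nearest to a day 6 pattern of their own were of miR167 and miR164. miR167a-5p was 0.44 log2 units lower in ethephon-treated apices at day 6, its lowest value of the 8 samplings, and its mean at the other 7 was 0.18. The departure was -0.61 (95% interval -1.101 to -0.12, unadjusted p = 0.0154, edgeR adjusted p = 0.529). miR164a-5p had -0.21 at day 6, also its lowest, and a mean of 0.44 at the others, a departure of -0.65 (95% interval -1.19 to -0.12, edgeR adjusted p = 0.529). miR319d-5p, with few counts, departed by -1.58 (95% interval -3.13 to -0.02, edgeR adjusted p = 0.701). None of the 3 passed, so none is called particular to day 6. Summed by family, 0 of 23 departed at day 6 from the other samplings (2 at an unadjusted p under 0.05, lowest edgeR adjusted p = 0.189) and 0 from day 5 (3 unadjusted, lowest 0.236), whereas 1 of 23 differed between day 6 and day 8 (4.35%). This was miR7782, whose 24-base members were at 1011, 1070 and 919 CPM in water-treated and 1063, 815 and 818 in ethephon-treated libraries at day 6, and at 592, 585 and 727 against 1548, 1173 and 1450 CPM at day 8. The log2 fold change was -0.15 at day 6 and 1.12 at day 8, a difference of -1.27 (95% interval -2.03 to -0.52; edgeR adjusted p = 0.0340). This call was lost on each of the other 4 scales tried, with adjusted p from 0.136 to 0.828, and without any 1 of replicate 1 of water, replicate 2 of ethephon or replicate 3 of ethephon (0.0666, 0.103 and 0.102).

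**Figure D4:**
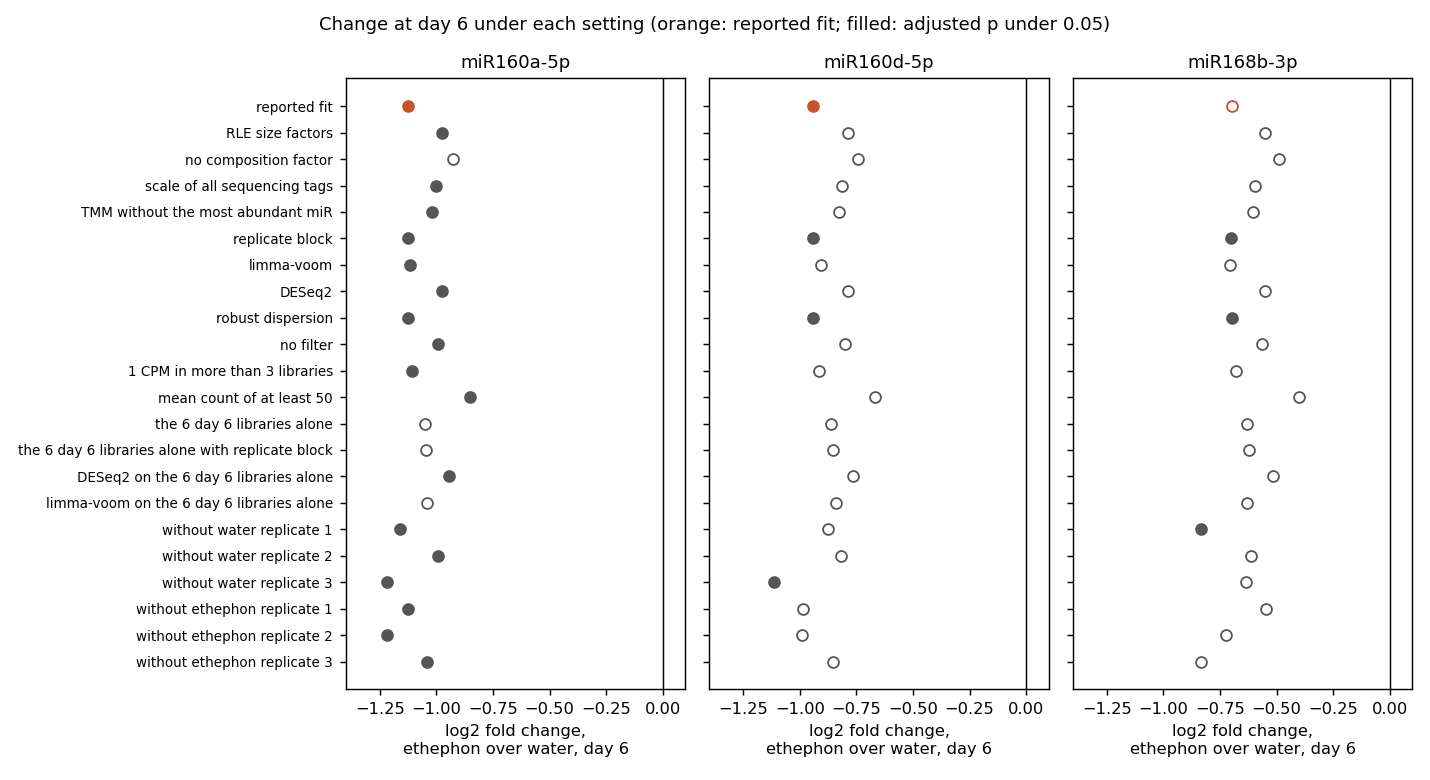
Log2 fold change at day 6 of miR160a-5p, miR160d-5p and miR168b-3p under the reported fit, in orange, and under each of 21 alternatives, in grey, with filled points for an adjusted p under 0.05. miR160a-5p is filled in 17 of the 21 alternatives, miR160d-5p in 3 and miR168b-3p in 3, and every point lies below 0.

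Under the count filter, 45 sequences had a count at day 6, with at most 32 counts in all. Of these, 13 were seen in water-treated and 6 in ethephon-treated libraries alone. On the CPM scale, every ethephon-treated library lay below every water-treated one for 2 of the 45 (4.44%), miR172a-5p and miR172c-5p, and above for 2 others (4.44%). The latter were miR529a-3p, of the family that targets SPL genes in grasses, and miR444b-3p, of a monocot family that targets MADS-box genes in rice. Their sequences, shown because their groups did not overlap in this direction, were these.
miR529a-3p: gCUGUACCcucucucuucuuc
miR444b-3p: uGCAGUUGcugccucaagcuu
miR529a-3p had 0 counts in each of the 3 water-treated libraries and 2, 1 and 9 in the ethephon-treated ones. Against a floor of 3 counts over the water-treated group, its share of the listed counts was at least 4.16-fold higher. This bound used no composition factor and took the ethephon-treated counts as exact. Of the 12 counts, however, 9 came from replicate 3 of ethephon. The 3 counts left without that library equal the floor and give no such bound. Its other arm, miR529a-5p, had 0, 1 and 0 counts against 2, 1 and 5. miR444b-3p had 2, 1 and 1 counts in water-treated and 8, 5 and 3 in ethephon-treated libraries. In a fit without the filter neither passed the test (edgeR adjusted p = 0.0922 and 0.340).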

How the data were processed

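Small RNA of pineapple apices was compared at day 6 between 3 libraries per treatment. The authors trimmed adapters, collapsed reads and aligned them to miRBase mature sequences. No source used here states the alignment settings or genome positions. The deposited table holds raw counts, and a score made by the authors, reads per 10000000 sequencing tags rounded to whole numbers, from which tags per library were recovered (scores of at least 100). A deposited list of sequences and names is of an other kind, with no measurement.

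Counts were analysed with edgeR 4.0.16 in R 4.3.3: filterByExpr (minimum count 10, total 15), TMM factors and a quasi-likelihood fit of 16 group means to 48 libraries, adjusted over 57 miRs, 23 families or 36 arms. Intervals are Wald intervals of the fit. The spread was thus shared over all groups (common biological coefficient of variation 0.246), and p-values take libraries as independent. A family is the number in a sequence's first name. Ratios within libraries were tested by exact permutation. Limma 3.58.1 and DESeq2 1.42.0 served as alternatives.

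Named miRs were the DE miRs, the 20 of smallest p, the 10 most abundant, all members of miR156, miR157, miR160 and miR172, those the study names and up to 3 of each of 10 lists of families by p. Others named were chosen after their values were seen. Among them were miR529, miR444, miR395, miR398, miR171f-5p, miR171a-5p and arms under the filter (miR160 and miR172 aside). Members and lists were chosen with earlier results of these data known. The lists whose counts are not in the report gave these values, against 2 DE of 57 over all tested miRs: MYB 0 DE of 5, phosphate and sulfate 0 of 3, lineage-limited 0 of 6, small RNA machinery 0 of 3, age and phase 0 of 2, and NBS-LRR defence no listed sequence. Target genes were not analysed here.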

Additional observations from a re-analysis of the deposited data

Results flagged for a closer look

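The miR7782 family differed in its response between day 6 and day 8. The test of that difference gave -1.27 log2 units (edgeR adjusted p = 0.0340, 23 families), and it did not hold on the other scales, as given in the report. Among sequences outside the tested set, miR529a-3p had 12 counts in ethephon-treated and 0 in water-treated libraries, and miR444b-3p had 16 in ethephon-treated and 4 in water-treated libraries. Both had a higher CPM in 3 of 3 ethephon-treated libraries than in any water-treated one. For miR529a-3p, however, replicates 1 and 2 of ethephon held 2 and 1 counts, within the limit of 3 counts set for a count of 0. Neither was DE without the filter. Groups of 3 libraries are too small to test for a library that stands apart.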

How the results depend on the processing

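Against 2 DE miRs in the reported fit, the count was 1 with RLE size factors, with the scale of all sequencing tags, with TMM factors computed without the most abundant miR, with limma-voom, with DESeq2, without a filter, with 1 CPM in more than 3 libraries, with a mean count of at least 50 and with DESeq2 on the 6 libraries alone. It was 0 without a composition factor (7 at an unadjusted p under 0.05), with edgeR on the 6 libraries alone (10 unadjusted) and with limma-voom on these (9 unadjusted), and 3 with robust dispersion. Leaving out 1 library gave 1 to 2. Every DE miR in each of these fits was lower in ethephon-treated apices. The cause of these changes was not tested. DE families numbered 1, except 0 without a composition factor (2 unadjusted, lowest adjusted p = 0.116) and 1 to 2 on leaving out 1 library, where miR394 was added without replicate 1 of water and miR172 without replicate 2 of ethephon. The tests of a departure from the other samplings, from day 5 and from day 8 gave 0 miRs in each alternative run. DESeq2 and limma-voom on the 6 libraries, and the ratio to the miR160 3p arms, were chosen after seeing the data.

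With the replicate number as a block, 3 miRs were DE in the replicate block fit of all libraries (miR168b-3p added, edgeR adjusted p = 0.0418) and 0 in the 6 libraries alone with the block (13 unadjusted). Deviations of same-numbered libraries correlated by 0.35, 0.02 and -0.01, so the numbers were not taken as pairs.

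The depth limited the rarer miRs: 3 counts stood for 42.5 to 58.4 CPM, and the 3p arms of miR160 held at most 29 counts in a library.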
